A study of Mus musculus with 21 samples.

Results

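Of 87822 single cells from notexin-injured and uninjured mouse muscle, 3897 carried no cell type label after integration with Harmony, although each of them had one after integration with BBKNN. The cells described here are the 2041 of these (52.4%) whose BBKNN label was anything other than infiltrating monocyte. They made up 2.32% of all cells, came from 20 of the 21 samples and carried 20 of the 27 BBKNN labels. The remaining 1856 unlabelled cells had the infiltrating monocyte label and serve only for comparison. The rule uses label columns alone, so numbers of transcripts, gene class shares and the labels of the third method, Scanorama, were not part of the choice. The Harmony clusters themselves were built from the transcripts of the same cells.

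The study profiled the tibialis anterior of 20-month-old female C57Bl/6J mice by droplet single-cell RNA sequencing, to follow muscle repair after notexin, a snake venom toxin that destroys muscle fibers. The uninjured group, 1 day post injury (dpi) and 3.5 dpi had 4 samples each, and the groups of 2, 5 and 7 dpi had 3 each. Both tibialis anterior muscles of an injured mouse received notexin, and the labels give no transgene or mutant allele, so by the labels the groups differed only in injury and day. Each sample was processed independently, and cells lost in the digestion of the muscle are not represented. The paper states that several time points were collected together, with up to 4 samples on a day. Collection days were not taken into account here.

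Damaged muscle is cleared by neutrophils and by blood monocytes, which mature within the tissue into macrophages. The first monocytes to arrive are inflammatory, and later populations carry repair-type (M2) programs. Meanwhile muscle stem cells proliferate, become committed progenitors and fuse, while fibro-adipogenic progenitors (FAPs) lay down matrix and T cells and dendritic cells accumulate. In single-cell data a broken or dying cell is known for few transcripts and a high share of mitochondrial ones.

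The files gave, for each cell, the number of unique transcripts (UMIs) after correction for ambient RNA, the genes it showed, the share of several gene classes among its UMIs in percent, a doublet score and the labels. Values of single genes were not analysed here, so no label could be set against marker genes and all labels stand as deposited. Samples held 974 to 10556 cells and 5602464 to 70730171 UMIs, and the estimated ambient share was 1.3% to 6.2%. Any pair of the 21 samples shared at most 0.418% of their cell barcodes. Of the members, 48 had a barcode that also occurred in another sample (2.35%, against 2.20% of all cells), and none shared one with a member of another sample. All members had been called singlets.

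As a share of all cells the members were rare in uninjured muscle and more frequent after injury. Uninjured replicates A, B, C and D held 0, 5, 5 and 1 of them, or 0%, 0.146%, 0.0994% and 0.103% of the sample's cells. The count of 0 among 2267 cells in replicate A allows a share of up to 0.132%. At 1 dpi the shares were 2.68%, 1.17%, 5.21% and 5.47% in replicates A to D, so replicate B lay far below replicates C and D. At 2 dpi they were 0.559%, 0.913% and 0.817%. Every one of the injured samples was above all of the uninjured ones. Cell composition differed too, since most members had myeloid labels. Without infiltrating monocytes, uninjured replicates B and C held 87 and 66 myeloid cells, and A and D fewer than 50. The injured samples held 375 to 4379. The share of reads that fell in cells also differed. It was 44.2% to 56.3% in the uninjured samples, 47.7% in 1 dpi replicate B and 66.5% to 94.8% in the other injured samples. How far the rise followed composition or this share was not tested.

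At 3.5 dpi the shares were 2.97%, 2.43%, 3.19% and 3.34%, with little spread between mice. The 3 samples of 5 dpi held 4.57%, 3.15% and 3.73%, and those of 7 dpi 2.31%, 1.79% and 1.77%. The uninjured mean was thus 0.0871% ± 0.0619 (SD, n = 4). Of all cells as deposited, the highest means were 3.63% ± 2.07 (n = 4) on day 1 and 3.82% ± 0.712 (n = 3) on day 5, followed by 2.98% ± 0.396 (n = 4) on day 3.5 and 1.96% ± 0.308 (n = 3) on day 7. The lowest mean after injury was 0.763% ± 0.183 (n = 3) on day 2. The order of the days depended on the setting. With infiltrating monocytes left out of the denominator the largest difference from uninjured muscle was 4.09 points on day 1, and under stricter limits on cells (1000 genes or more, 2000 UMIs or more, mitochondrial share up to 15%) it was 1.88 points on day 3.5. The share differed between the 6 groups (p = 5e-05, permutation test with 100000 resamples of an F statistic over 21 samples, after an arcsine square root transform). For each injured group against the uninjured one, the two-sided exact permutation test gave p = 0.0286, the smallest these group sizes allow, and an adjusted p of 0.0286 over the 5 days.

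**Figure D1:**
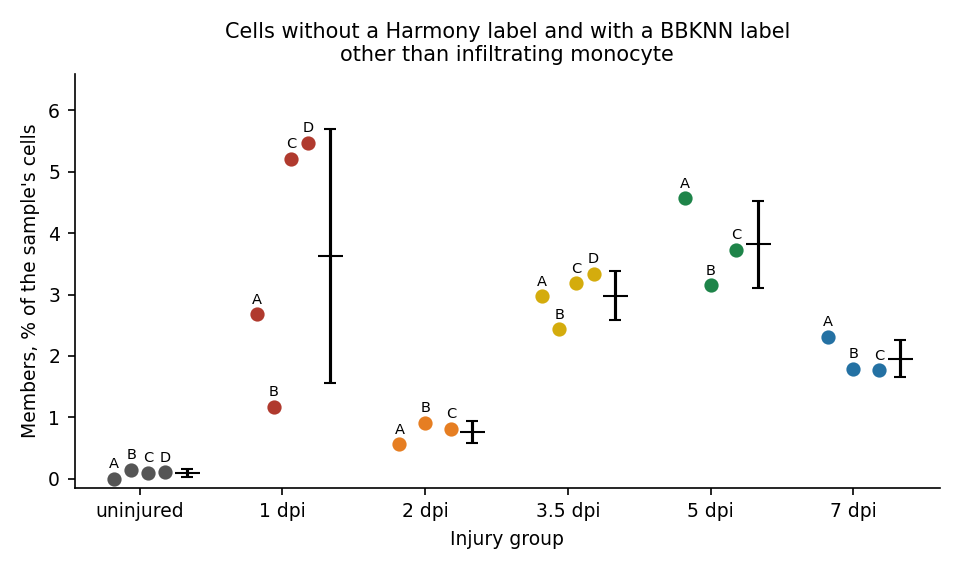
Members as a percent of each sample's cells (y axis, linear) in the 6 injury groups (x axis), with 1 point per mouse lettered by replicate and the group mean with its SD as a bar. The uninjured samples sit between 0% and 0.146%, all below the lowest injured sample at 0.559%, and the 1 dpi samples spread from 1.17% to 5.47%.

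The small share at 2 dpi concerned the members and not all unlabelled cells. At this day 1562 unlabelled cells were infiltrating monocytes and 127 were members, while at 5 dpi 28 were infiltrating monocytes and 609 were members. The split therefore moved with time, and at 2 dpi the rule leaves out most of the unlabelled cells.

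By broad class the members were mostly myeloid. Myeloid labels took 1676 of the 2041 (82.1%), lymphocyte labels 185, myogenic labels 123, FAPs 29, endothelial labels 17, myonuclei 9 and smooth muscle 2. Neural cells and tenocytes, with 1005 and 1021 cells in the series, had no member. With infiltrating monocytes left out of both classes, the share lacking a Harmony label was 5.04% ± 2.73 of myeloid cells and 0.848% ± 0.954 of all other cells (mean ± SD over 19 samples with at least 50 cells of each class). The difference of 4.19 percentage points was in the same direction in 18 of 19 samples (p = 7.63e-06, two-sided exact sign-flip test over mice). Uninjured replicate C was the exception, with 0% of myeloid and 0.101% of other cells. Among the injured samples the contrast was 0.780 to 2.83 points at 3.5 dpi and 1.70 to 3.47 points at 2 dpi, and at least 3.73 points at the other days.

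The non-myeloid classes differed among themselves. Over all samples the members were 4.64% of cells with a myogenic BBKNN label, beside 3.82% of myeloid cells (infiltrating monocytes counted in the total), 3.13% of lymphocytes, 0.235% of FAPs and 0.111% of endothelial cells. By the rule none of the 12417 infiltrating monocytes can be a member, yet they count among the 43866 myeloid cells. With them left out, the myeloid share lies above the myogenic one. These pooled shares weight each sample by its cells, and they carry no test.

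Macrophages of the *Cx3cr1*_hi M2 label were the largest group, with 731 members. *Cx3cr1* encodes the fractalkine receptor, which marks resident and repair-type macrophages. Members of this label were found at every day after injury, but 392 of them came from 5 dpi, 175 from 3.5 dpi and 109 from 7 dpi, against 12 and 43 from days 1 and 2, when the label held 191 and 869 cells. As a share of all cells with this label, the members were 2.50% to 8.70% (mean 5.48%, 4 samples) on day 1 and 3.52% to 7.45% (mean 5.23%, 3 samples) on day 2. They were 3.45%, 1.28%, 5.24% and 5.24% in the 4 samples of 3.5 dpi, which overlapped the earlier days. The samples of 5 dpi gave 9.52%, 11.6% and 12%, and those of 7 dpi 11.9%, 11.1% and 9.80%. The values at 5 and 7 dpi overlapped each other and lay above those of all earlier samples, whereas the number of cells with the label fell from 3687 to 977 between 5 and 7 dpi.

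Inflammatory monocytes, the early cells that enter from blood, came second with 535 members. Of these, 465 were from 1 dpi and 61 from 2 dpi. None were from uninjured or 5 dpi muscle, which held only 48 and 207 cells of the label. At 1 dpi the members were 5.60%, 5.00%, 14.2% and 11.2% of the label in replicates A to D, so the spread of the whole share at this day was also a spread within this label. At 2 dpi the values were 1.96%, 4.20% and 2.84%, all below the lowest sample of 1 dpi. The *Cx3cr1*_lo M2 label, with 80 members in 16 samples, had its largest number at 1 dpi (31 of 590 cells) and 3.5 dpi (28 of 1162). Its mean share was 3.81% at 1 dpi, with single samples from 0% to 6.90%, and 2.39% at 3.5 dpi. Days 2, 5 and 7 gave 1.14%, 2.11% and 2.37%. The number at 3.5 dpi thus went with more cells of the label.

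Patrolling monocytes gave 251 members, of which 203 were from 3.5 dpi. In that group the members were 5.59%, 4.88%, 4.70% and 4.56% of the label. The 3 samples of 5 dpi gave 6.29%, 4.93% and 4.49%, which overlapped those of 3.5 dpi. The high count at 3.5 dpi went with 4159 cells of the label at this day, against 552 at 5 dpi. The share of the label without a Harmony label did not separate the 2 days.

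**Figure D2:**
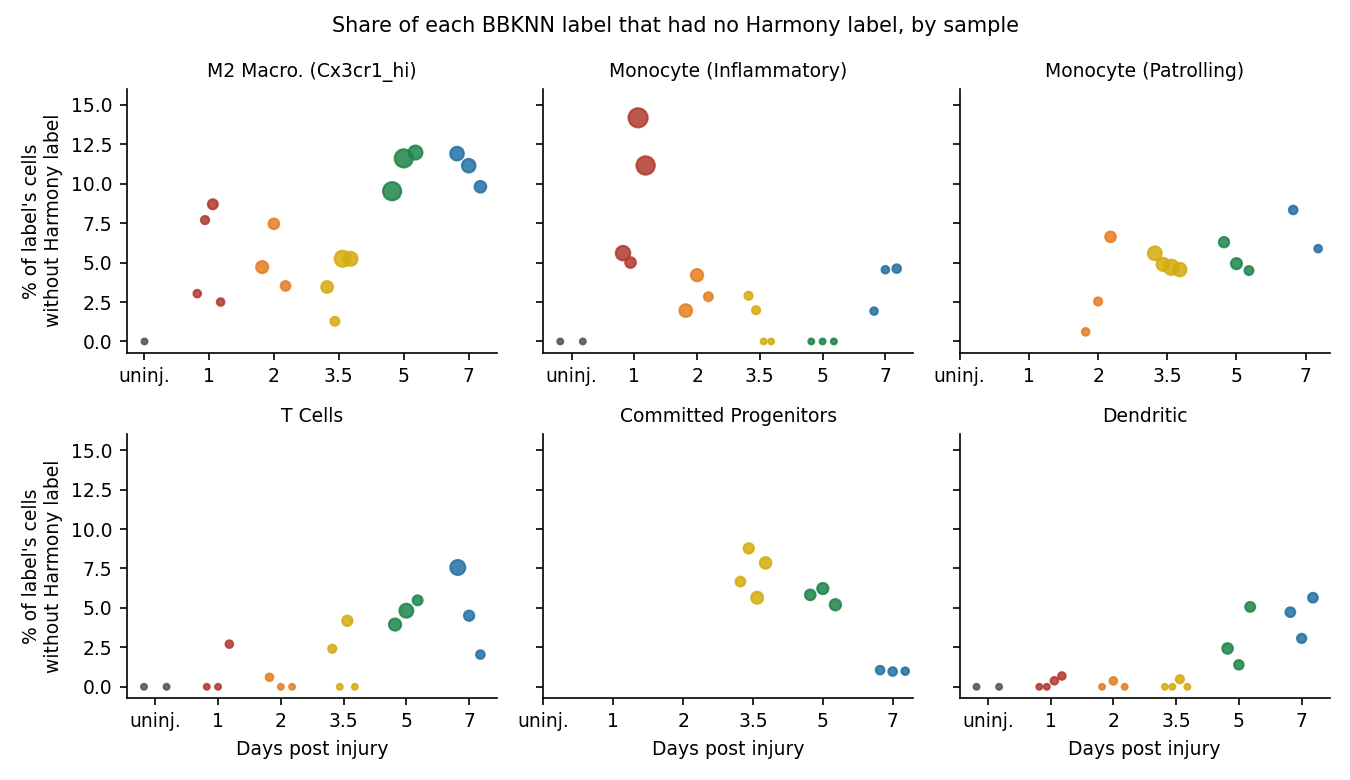
Percent of the cells of a BBKNN label that had no Harmony label (y axis, linear) for 6 labels, by days post injury (x axis), with 1 point per sample that held at least 10 cells of the label and larger points for more members. Inflammatory monocytes are highest at 1 dpi (5.00% to 14.2%), *Cx3cr1*_hi M2 macrophages at 5 and 7 dpi (9.52% to 12%), and committed progenitors at 3.5 and 5 dpi (5.2% to 8.77%).

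T cells gave 181 members, most of them late, as were most T cells. Days 3.5, 5 and 7 gave 12, 83 and 84 of them, and 71 of the last number came from replicate A. The members were 3.94%, 4.82% and 5.48% of T cells in the samples of 5 dpi and 7.56%, 4.50% and 2.04% in those of 7 dpi. Earlier samples reached up to 4.18% (3.5 dpi replicate C, 10 members of 239 T cells), within that range. Dendritic cells, which present antigen to T cells, gave 50 members, 45 of them from 5 and 7 dpi. Their share was 2.43%, 1.39% and 5.06% at 5 dpi and 4.73%, 3.07% and 5.65% at 7 dpi, against at most 0.685% in any sample up to 3.5 dpi.

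Committed progenitors, the myogenic cells that are about to fuse, gave 112 members. In the samples of 3.5 dpi these were 6.67%, 8.77%, 5.65% and 7.85% of the label, and in those of 5 dpi 5.83%, 6.23% and 5.2%. At 7 dpi they were 1.06%, 0.965% and 0.990%, far below the earlier days, although the label still held 696 cells. Neutrophils gave 29 members, 27 of them at 1 dpi, the day of 1534 of the 1911 cells with the label. Their mean share was 1.45% at 1 dpi, 0.980% at 2 dpi and 1.09% at 3.5 dpi, with 1 member at each of the latter days. FAPs of the pro-remodeling label gave 26, all from 3.5 dpi on, and at most 1.36% of the label in any sample with at least 10 cells of it.

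The other 11 labels held 46 members. They comprised 16 capillary endothelial cells, 9 myonuclei of the cell preparation label, 7 cells of the Myoblasts_2 label, 3 MuSCs, 2 each of B cells, NK cells, smooth muscle and adipogenic FAPs, and 1 each of stem endothelial cells, stem FAPs and the Myoblasts_1 label. The Myoblasts_2 label was small, and its 7 members were 15.6% of its 45 cells. Arterial and venous endothelium and type IIb and IIx myonuclei had none.

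The members were shallow cells. Over all samples their median was 2124 UMIs and 952 genes, with 10.9% mitochondrial UMIs, beside 6494 UMIs, 2250 genes and 5.56% in Harmony-labelled cells. The quartiles of the members' UMIs were 1456 and 3644, and those of the labelled cells 3259 and 11619. Of the members 592 (29.0%) had fewer than 750 genes, the minimum that the methods state, as had 5.54% of the labelled cells. Whether genes were counted again after the correction for ambient RNA is not given in the sources used here, so a value under 750 does not show that a cell failed the stated filter. Under the stricter limits on cells 36.3% of the members and 77.3% of the labelled cells were kept. Together the members held 0.987% of all UMIs.

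The same held within a label and sample. Each member was set against the Harmony-labelled cells with its BBKNN label in its own sample, where at least 10 such cells existed, and a sample entered with at least 5 matched members. The 19 samples contained 2030 matched members. In the 17 injured samples the members had fewer UMIs in every case, by 1.00 to 2.40 on the log2 scale. The sample medians were for example 2803 UMIs in members against 11130 in matched labelled cells in 1 dpi replicate A, 1478 against 3455 in 2 dpi replicate A, and 8502 against 20222 in 3.5 dpi replicate B. Here the matched labelled value is the median, over the members, of the labelled median of each member's own label. It is not the median of all labelled cells of the sample, and such a pair need not give the sample's difference exactly. The median difference over the 19 samples was -1.77 on the log2 scale, or 3.41-fold lower. The fold from the mean difference was 2.54, and it was 1.87 with matching on the Scanorama label, 1.91 under the stricter limits and 3.33 in injured samples only.

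The mean difference was -1.34 ± 1.25 (SD, n = 19 samples, lower in 17), with an adjusted p of 0.000992 (two-sided exact sign-flip test over mice, Benjamini-Hochberg over 5 measures). Uninjured replicates B and C were the only samples with the opposite sign. Without them the mean difference was -1.73 ± 0.459 over 17 samples (adjusted p = 1.91e-05, exact test). Leaving them out was not planned, though a planned limit of at least 10 matched members kept the same 17 samples. All 17 have the same sign, so the exact test gives the smallest p it allows, and this p adds no support. Genes per cell were lower in 19 of 19 samples, by 1.16 ± 0.422 on the log2 scale (mean difference -1.16, adjusted p = 1.91e-05, exact test). The sample medians were 684 to 2103 genes in members and 1185 to 4021 in the matched labelled cells. Under the stricter limits the mean difference in genes was -0.59.

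The mitochondrial share was higher in the members of all 17 injured samples, by 1.27 points in 3.5 dpi replicate B to 15.1 points in 1 dpi replicate C. In the latter it was 17.8% in members and 2.71% in matched labelled cells. The 4 samples of 3.5 dpi had the smallest differences, at most 2.77 points, and all other injured samples lay at 4.54 points or above. Over 19 samples the mean difference was 3.8 ± 7.93 points (adjusted p = 0.0496, exact test). This call lay just under the threshold, with the 2 uninjured samples on the other side of 0 (-22.2 and -9.65 points). It was lost on leaving out any 1 of the 17 injured samples (adjusted p = 0.0545 to 0.0939, exact tests). Without the uninjured samples, a setting that was not planned, the difference was 6.12 ± 3.39 points (adjusted p = 1.91e-05, exact test). That setting removes the only samples of opposite sign, so its p is the smallest the test allows and does not secure the call over 19 samples.

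**Figure D3:**
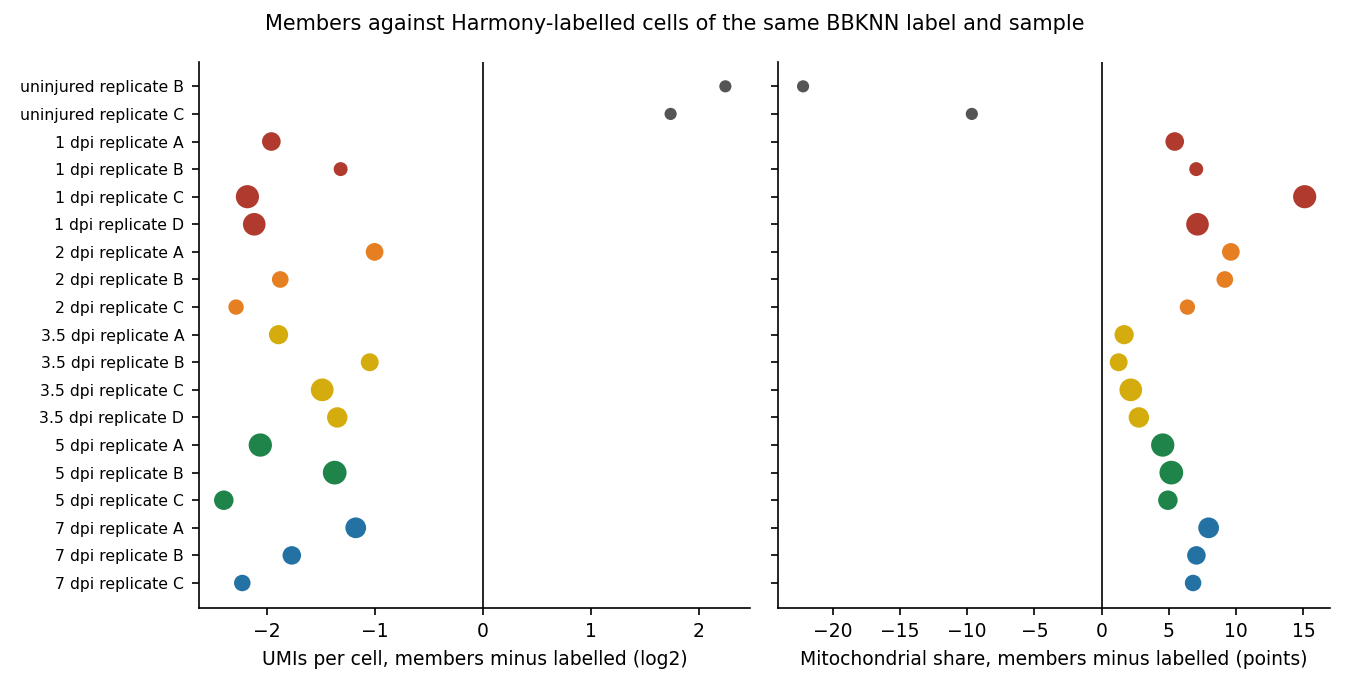
Difference between members and Harmony-labelled cells of the same BBKNN label in the same sample (x axes), in log2 UMIs per cell at left and in percentage points of mitochondrial UMIs at right, with 1 row per sample and larger points for more matched members. All 17 injured samples lie left of 0 for UMIs and right of 0 for the mitochondrial share, and uninjured replicates B and C lie on the opposite sides.

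The doublet score, the share of artificial doublets among a cell's neighbors, was lower in members in 18 of 19 samples (mean difference -0.0534 ± 0.0365, adjusted p = 9.54e-05, exact test). Its median was 0.0943 in members and 0.184 in labelled cells. Since a cell with few UMIs shows few genes, members were also set against labelled cells of the same label and sample whose UMIs lay within a factor of 1.25, a comparison added after the values were seen, which kept 1825 members in 18 samples. At equal UMIs genes per cell still differed in the same direction in 18 of 18 samples, but only by 0.141 ± 0.160 on the log2 scale (mean difference -0.141, adjusted p = 1.53e-05, exact test). The mitochondrial share remained higher in 17 of 18 samples, by 3.42 ± 2.78 points (adjusted p = 3.05e-05, exact test). The doublet score difference was -0.0235 ± 0.0279 (adjusted p = 1.53e-05, exact test).

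The size of these differences depended on the label, and the values by label are given as a description without tests. UMIs were lower in all 13 samples for *Cx3cr1*_hi M2 macrophages (median over samples 3.30-fold), in all 6 for inflammatory monocytes (3.36-fold), all 7 for patrolling monocytes (3.19-fold), all 5 for *Cx3cr1*_lo M2 macrophages (5.82-fold) and all 6 for dendritic cells (3.90-fold). In T cells the difference was smaller, 1.69-fold lower in 6 of 6 samples. Labelled T cells are themselves small, with a median of 2964 UMIs against 1852 in members.

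Neutrophils were the exception among the immune labels. Their members had 3113, 1576 and 2283 UMIs in 1 dpi replicates A, C and D, against 2726, 1581 and 2039 in the labelled neutrophils, so neither group was consistently deeper. Members had more genes in each of the 3 samples (1267 against 1030, 874 against 732, and 1016 against 809). Their ribosomal protein share was also higher in each, 3.39% against 2.02%, 5.47% against 2.60% and 3.63% against 1.89%. Their mitochondrial share differed by only -0.267 to 3.15 points.

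Inflammatory monocytes had a higher mitochondrial share in every sample. In 1 dpi replicates A to D the members had 9.91%, 10.4%, 18.7% and 11.5% mitochondrial UMIs, and the labelled cells 3.49%, 3.62%, 2.71% and 3.92%. In 2 dpi replicates A and B the values were 15.4% and 15.7% against 5.03% and 4.75%, and every member median lay above every labelled median. At equal UMIs the difference was still 5.53 points in the median over 6 samples. Their share of long intergenic noncoding RNA was higher in 6 of 6 samples (median 1.01 points) and their ribosomal protein share lower in 6 of 6 (median difference -3.08 points).

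Committed progenitors went the other way. At 3.5 dpi their members had 1442, 1664, 1472 and 1999 UMIs in replicates A to D, against 26059, 27221, 18234 and 17146 in labelled progenitors. Yet their mitochondrial share was 0.181%, 1.13%, 1.59% and 0.859%, against 10.2%, 10.7%, 10.3% and 11.1% in labelled cells. The difference was -10.2 to -8.71 points in the 4 samples. This is the reverse of the difference in inflammatory monocytes, and the difference between these labels was not tested.

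The mitochondrial differences were smaller at 5 dpi, and the days were not tested against each other. At 5 dpi members of the progenitor label had 8040, 11289 and 2036 UMIs in replicates A to C, against 12129, 6009 and 16403 in labelled cells. In log2 UMIs the difference was -0.593 in replicate A and 0.910 in B. In replicate C it was -3.01, close to the -3.10 of 3.5 dpi replicate D. The mitochondrial share of the members was 11.9%, 9.67% and 7.68% against 10.9%, 13.6% and 9.38%. At 3.5 dpi the 60 members had a median of 0.0864% long intergenic noncoding RNA, against 0.632% in labelled progenitors of that day, and 24.1% ribosomal protein UMIs against 19.2%. The comparison at equal UMIs kept 69 members of the label in 5 samples, with a median mitochondrial difference of 0.00350 points. Single samples ranged from -2.72 to 0.422 points, with 2 lower and 3 higher.

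**Figure D4:**
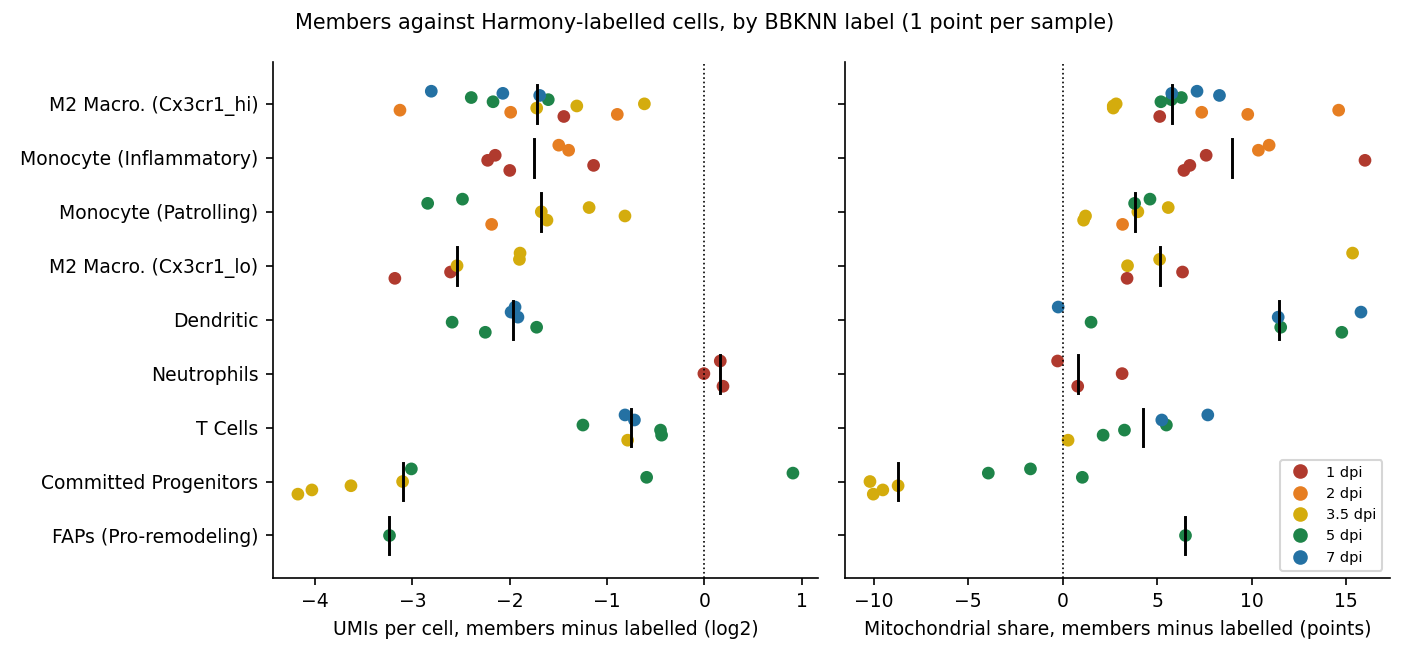
The same differences as above split by BBKNN label (y axis), in log2 UMIs per cell at left and percentage points of mitochondrial UMIs at right (x axes), with 1 point per sample with at least 5 matched members, colored by day, and a black bar at the median over samples. Neutrophils sit near 0 for UMIs, and committed progenitors of 3.5 dpi sit at -10.2 to -8.71 points for the mitochondrial share while inflammatory monocytes sit at 6.42 to 16 points.

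The other gene classes are described without tests. Ribosomal protein UMIs were lower in members in 17 of 19 samples (median difference -1.74 points) and protein-coding UMIs in 17 of 19 (median -1.84 points). At equal UMIs the ribosomal difference was divided between 10 samples lower and 8 higher, and the protein-coding one was still lower in 17 of 18. Heat shock genes were lower in 15 of 19 samples, by a median difference of -0.0467 points, and in 9 of 18 at equal UMIs. Transcription factor genes were higher in 13 of 19, long intergenic noncoding RNA in 11 of 19 and antisense RNA in 10 of 19. Small nucleolar, micro and small nuclear RNA had a median difference of 0, and bidirectional promoter noncoding RNA was lower in 12 and higher in 2.

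The members were also set against the other unlabelled cells of the same sample. In 14 samples with at least 5 cells of each, members had a median of 2557 UMIs and 1101 genes, and unlabelled infiltrating monocytes 2846 UMIs and 1209 genes (medians over samples). The difference was -0.07 ± 0.56 in log2 UMIs, with members lower in 7 samples and higher in 7 (adjusted p = 0.649, two-sided exact sign-flip test). For log2 genes it was -0.09 ± 0.40 (adjusted p = 0.626, exact test) and for the mitochondrial share -1.98 ± 5.42 points (adjusted p = 0.605). Single samples ranged from -0.94 to 0.76 in log2 UMIs and from -14.4 to 8.21 points in the mitochondrial share. Any difference was thus not detectable against the spread over these 14 samples, which does not show that the cells were alike.

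Scanorama placed most members in the same broad class as BBKNN. The class was the same for 97.3% of members, and 1 member had no Scanorama label. Matched by label and sample, the share with the same class was -2.0 ± 2.26 points relative to labelled cells (13 samples below and 4 above 0 of 19, adjusted p = 0.000992, exact test). Without matching the sign turned, with members agreeing more often by 1.92 points (adjusted p = 0.0685, exact test), and at equal UMIs the difference was -1.22 points (adjusted p = 0.0732). All 535 inflammatory monocytes and all 80 *Cx3cr1*_lo M2 macrophages were myeloid by Scanorama too. Pro-remodeling FAPs were the exception, with 11 of 26 in the same class (42.3%, against 82.8% of labelled cells) and 12 called committed progenitors.

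Within the myeloid class the fine labels differed. Scanorama used its own *Cx3cr1*_hi M2 label for only 870 cells of the series, and 478 of these were members and 50 were unlabelled infiltrating monocytes, so 60.7% of that label had no Harmony label. These 478 were mostly not *Cx3cr1*_hi cells by BBKNN: 273 were inflammatory monocytes and 144 had the *Cx3cr1*_hi label in both. The 273 made up 51.0% of the inflammatory monocyte members and had a median of 20.3% mitochondrial, 6.16% ribosomal protein and 4.06% long intergenic noncoding UMIs. The 205 that Scanorama also called inflammatory had 8.09%, 9.30% and 0.805%. Their UMIs were closer, 1935 against 2284. Of the 731 *Cx3cr1*_hi members by BBKNN, Scanorama called 434 patrolling and 134 infiltrating monocytes. Labelled cells of this label kept it even less often, in 86 of 8801 (0.977%) against 19.7% of members. For inflammatory monocytes it was the reverse, with 38.3% of members and 90.4% of labelled cells keeping the label.

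A further label column is named as a pre-filter label. The methods do not describe it, but state that a noisy cluster was removed after a first integration and the data were integrated again. It is read here as a label from before that step, which is an assumption, and its use was chosen after the values were seen. By this column 525 members (25.7%) were T cells, against 4.72% of the labelled cells. The trait was not particular to the members, as 396 of the 1856 unlabelled infiltrating monocytes were T cells by it too. Of the 525 members, BBKNN called 170 T cells, and the other 355 carried 16 other labels. Inflammatory monocytes took 142, *Cx3cr1*_hi M2 macrophages 57, committed progenitors 52, dendritic cells 25 and pro-remodeling FAPs 20. Scanorama placed 4 of the 355 among lymphocytes.

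The pre-filter T cells differed by their BBKNN label. The 170 with the BBKNN T cell label had medians of 1854 UMIs, 12.7% mitochondrial and 18.7% ribosomal protein UMIs. The other 355 had 1712 UMIs, 18.1% mitochondrial and 7.34% ribosomal protein UMIs. Labelled cells with the same pre-filter label had 19.6% ribosomal protein UMIs, and 93.7% of them were T cells by Harmony. Members with a pre-filter T cell label and another BBKNN label were 7 of the 11 in uninjured muscle. At 1 dpi they were uneven between mice, with 3 of 78 members in replicate A, 0 of 14 in B, 85 of 236 in C and 49 of 210 in D. Pooled over the samples of a day they were 25.5%, 13.4%, 18.7%, 12.5% and 9.45% of the members on days 1, 2, 3.5, 5 and 7, and the first of these values rests on replicates C and D.

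By the same column 185 members were MuSCs, of which 41 were committed progenitors by BBKNN and 110 were inflammatory monocytes. The 110 had medians of 1636 UMIs, 702 genes and 20.4% mitochondrial UMIs. Only 25 of the 7153 labelled inflammatory monocytes were MuSCs by this column, as were 94 of the 1856 unlabelled infiltrating monocytes. The pre-filter broad class was the same as by BBKNN in 73.5% of members and 98.1% of labelled cells, and matched by label and sample it was the same less often in 18 of 19 samples (mean difference -27.7 ± 19.0 points). The share was lowest for pro-remodeling FAPs (2 of 26), committed progenitors (42.0%), dendritic cells (48%) and inflammatory monocytes (50.8%), and highest for T cells (93.9%).

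Committed progenitors of 3.5 dpi comprised 37 members that were pre-filter T cells, with medians of 1325 UMIs and 0.687% mitochondrial UMIs, and 16 that were pre-filter MuSCs, with 8347 UMIs and 3.89%. The 3 that were pre-filter myoblasts or progenitors had 0.0844%, so a low share was not limited to pre-filter T cells. At 5 dpi the 13 pre-filter T cells had 1945 UMIs and 6.92%, and the 21 pre-filter MuSCs 14179 UMIs and 10.3%, beside 12368 UMIs and 10.7% in labelled progenitors of that day. At 7 dpi the 2 pre-filter T cells had 25.5%. These subsets were chosen after the values were seen.

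**Figure D5:**
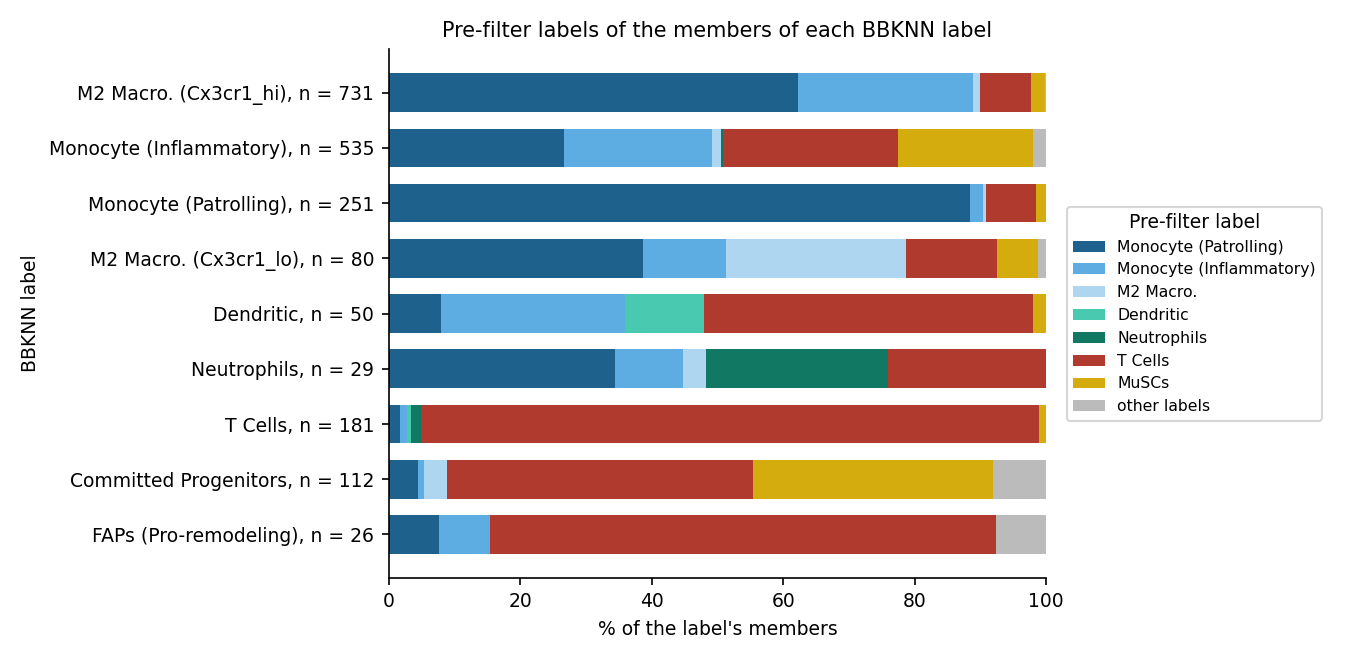
Pre-filter labels of the members, as a percent of the members (x axis, linear from 0) of each BBKNN label with at least 20 members (y axis, with the number of members). T cells have the T cell label here too in 93.9%, while pre-filter T cells make up 26.5% of inflammatory monocytes, 46.4% of committed progenitors, 25 of the 50 dendritic cells and 76.9% of pro-remodeling FAPs.

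The 11 members of uninjured muscle carried other labels than most of those after injury. They comprised 8 capillary endothelial cells, 2 myonuclei and 1 *Cx3cr1*_lo M2 macrophage, with no inflammatory or patrolling monocyte, *Cx3cr1*_hi M2 macrophage or T cell. These labels were scarce in uninjured muscle, with or without a Harmony label. It held 48 inflammatory monocytes, 24 *Cx3cr1*_hi M2 macrophages, 40 T cells and no patrolling monocyte, so such members could hardly appear. The 8 capillary cells had a median of 12451 UMIs but only 747 genes, with 5.12% mitochondrial UMIs, against 2954 UMIs, 1319 genes and 18.2% in the 5337 labelled capillary cells of these samples. The 4 capillary members of replicate B had 11544, 13358, 15717 and 21703 UMIs over 755, 707, 859 and 868 genes. That is 15.3 to 25 UMIs per gene, where the median was 2.24 in members and 2.93 in labelled cells.

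Over 15 UMIs per gene were found in 21 of the 87822 cells. Of these, 6 were uninjured members: the 4 capillary cells of replicate B and, in replicate C, 1 capillary cell with 13711 UMIs over 739 genes and 1 myonucleus with 12395 UMIs over 594 genes. The other 15 were labelled cells, 11 of them myonuclei of the cell preparation label, and no member of an injured sample was among them. All 5 capillary cells were T cells by the pre-filter label, and their ribosomal protein share was 0.734% to 2.00%. The remaining 3 capillary members, from replicates C and D, had 1073, 4260 and 1120 UMIs at 2.02 to 2.23 UMIs per gene. The limit of 15 was set after the values were seen.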

How the data were processed

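The deposited tables held 1 row per cell. Per the labels and the methods, the authors aligned reads to mm10 with Cell Ranger 3.1.0, removed ambient RNA with SoupX, scored doublets with DoubletFinder, filtered cells and merged samples with Seurat (3.1.5 in the processing notes), and integrated them by Harmony, BBKNN and Scanorama. The authors' corrected UMI numbers are estimated counts and need not be whole. The deposited percent values are shares of a cell's UMIs, and the deposited doublet score is a fraction of neighbors that were artificial doublets. Genes per cell were used as deposited.

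Members were cells with an empty Harmony label and a BBKNN label other than infiltrating monocyte. They, the labels and the comparisons were chosen with earlier results of these data known. The sample, 1 mouse, was the unit: tests were two-sided exact sign-flip or permutation tests (Python 3.11.15, numpy 2.4.6, pandas 2.3.3), checked on simulated data. The threshold was an adjusted p of 0.05. Labels with at least 20 members are named in the text. Counts of 0 and intervals cover counting error only. Alternatives changed the scale, denominator, filter, matching, class column and replicate set. Values of single genes were not analysed here.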

Additional observations from a re-analysis of the deposited data

Results flagged for a closer look

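In the comparison of members with Harmony-labelled cells of the same BBKNN label and sample, uninjured samples went against all injured ones in 2 measures, and this difference between groups was not tested. In log2 UMIs the mean over the 2 uninjured samples with at least 5 members was 1.99 (1.74 and 2.24), against -2.40 to -1.0 in the 17 injured samples. In the mitochondrial share it was -15.9 points (-22.2 and -9.65), against 1.27 to 15.1 points. Each of these uninjured samples rests on 5 members, and 8 of the 11 uninjured members were capillary endothelial cells. In none of 21 sets of values from groups large enough to be examined did the highest or lowest sample stand apart from the others.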

How the results depend on the processing

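Of 289 values under alternative settings, 233 kept their direction and side of the threshold. This total is not a measure of robustness, since the settings were not independent. A limit of at least 3 matched members kept the same 2030 members as the main test, and a limit of at least 10 equalled leaving out the uninjured samples. Comparisons with infiltrating monocytes that stayed undetected also count as kept. The test over all days kept its call under its 26 alternatives, myeloid against other cells under 21, and UMIs, genes and doublet score under all of theirs. The replicate letters showed no consistent pairing of the samples. Same-letter deviations had a mean correlation of -0.0348 over 48 pairs (-0.755 to 0.615), and 1 of 21 samples was most like another of its letter. This does not exclude that samples shared a collection day. With the replicate block the differences from uninjured were 3.55, 0.681, 2.89, 3.73 and 1.88 points in order of day, with adjusted p = 0.250 in the exact test, and such a block allows no p below 0.125. Leaving out replicates gave 2.93 to 4.37, 0.601 to 0.778, 2.78 to 3.08, 3.35 to 4.06 and 1.69 to 1.97 points in the same order, and the call was lost without any 1 uninjured sample at 1 and 3.5 dpi (adjusted p = 0.1) and without any 1 sample at the other days (adjusted p = 0.0667 to 0.1), where exact tests with fewer samples cannot pass the threshold at every day. The stricter filter gave 1.56, 0.253, 1.88, 1.38 and 0.625 points, over 1.5 times smaller at every day, with the call lost at 2 dpi (adjusted p = 0.0571, exact test). Without infiltrating monocytes in the denominator the 2 dpi difference was 1.32 points. The day with the largest difference was 5 dpi as reported, 3.5 dpi under the filter and 1 dpi under that denominator or without 1 dpi replicate A, 1 dpi replicate B or 5 dpi replicate A. Genes per cell differed by -0.59 on the log2 scale under the filter. For the mitochondrial share, leaving out replicates gave 3.18 to 5.25 points, and matching on the Scanorama label gave 1.73 points (adjusted p = 0.273, exact test). Agreement of classes turned to 1.92 points without matching and was -1.22 points at equal UMIs. Against infiltrating monocytes, log2 UMIs turned to 0.00991 with myeloid labels only. The cause of these changes was not tested.

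Of the members 47.1% had under 2000 UMIs, which limits the precision of their gene class shares. The uninjured values rest on 11 cells, and the files used here held no single genes, so labels could not be checked against markers.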
